A study of Mus musculus with 4 samples.

Results

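The promoters described here belong to the mouse genes named Zfp and a number, the "zinc finger protein" series of gene symbols. Every promoter in the deposited table whose RefSeq transcript carries such a symbol was taken, whatever its count, and a gene with several transcripts was represented by the one with the highest mean count. This gave 457 promoter entries for 352 genes, 1.49% of the 23631 genes with a promoter count. Of these, 282 genes had 1 transcript in the table and 70 had several, up to 8. For 49 of the 70 all transcripts had the same counts. In 3 genes the lowest transcript held under 50% of the highest: Zfp217 (mean count 69 against 508), Zfp708 (50.5 against 282) and Zfp981 (15.5 against 34.5).

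Most zinc finger proteins bind DNA through tandem fingers, small loops folded around a zinc ion, and in mammals many of them carry a KRAB domain that recruits the corepressor Trim28 and, through it, histone-modifying silencers. KRAB zinc finger genes lie in tandem clusters that arose by duplication, and many of their proteins silence retroelements or hold imprinted loci in their methylated state. The symbol is not a family in the strict sense: Zfp36 is an RNA-binding protein with fingers of another type, and Zfp185 is a LIM-domain protein of the actin cytoskeleton. Acetylation of histone H3, the mark measured, is found at promoters that are active or ready to be used.

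Chromatin from the left ventricle was immunoprecipitated with an antibody to acetylated histone H3 and sequenced. All mice were male C57BL6 animals aged 10 to 12 weeks. They had transverse aortic constriction (TAC), which narrows the aorta and overloads the ventricle, or sham surgery, and then received DMSO as vehicle (Veh) or the histone deacetylase inhibitor trichostatin A (TSA) dissolved in DMSO. Injections were given under the skin 2 times a day for 4 weeks, with TSA at 0.6 mg per kg per day. The 4 groups (Sham Veh and TAC Veh, Sham TSA and TAC TSA) have 1 library each and hence no replicates, and the sources used here do not give how many ventricles went into a library. A whole ventricle holds several cell types, so fewer cells of a type and less acetylation per cell cannot be told apart. The sham labels refer to an earlier deposit and the TAC labels do not, so surgery and a difference in when the libraries were made cannot be told apart.

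Total promoter counts ranged from 6842296 in TAC TSA to 9905553 in Sham TSA. Among gene counts, the share of the Zfp promoters was 1.80% (1.79 to 1.81, exact binomial 95% interval) for Sham Veh, the same for Sham TSA, 1.79% (1.78 to 1.80) for TAC Veh and 1.76% (1.75 to 1.77) for TAC TSA. Olfactory and vomeronasal receptor promoters, 1455 genes taken as a background set, took 0.420%, 0.427%, 0.505% and 0.677% in the same order. Their share was thus highest in TAC TSA. More background and a change in acetylation at these or other promoters cannot be told apart. All 10 cardiomyocyte markers had mean counts between 256 and 501, against medians of 46.8 for 6 hepatocyte and 83 for 6 neuron markers. Counts below are raw, or scaled to a common library size by TMM (trimmed mean of M-values), per promoter window. The sources used here do not state the length of that window, so levels of different promoters are compared on the assumption that it was the same for all. Log2 ratios are between scaled counts, with exact 95% intervals that cover counting error only. When libraries were scaled on the receptor promoters, the all-gene median shifted: by −0.24 for TAC Veh over Sham Veh, by −0.38 for TAC TSA over TAC Veh, by −0.59 for TAC TSA over Sham TSA and by −0.03 for Sham TSA over Sham Veh. Ratios are therefore relative to the bulk of promoters.

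Sequence was read for 240 of the 352 promoters, those with a single listed start among 292 found in the RefSeq table (GRCm38.p6). Starts were matched to counts by gene symbol. Where transcripts differ in count, as for Zfp981 and Zfp710, the listed start may not be the one counted. The 6 below show the spread of promoter types behind the values that follow: the highest count, the lowest count among promoters with a mean of at least 10, a promoter that differed with surgery under TSA, the one that was lower with TSA in sham hearts, a well acetylated promoter with few CpG dinucleotides, and a promoter listed at 0. Zfp106 and Zfp966 were chosen after their values were seen. Each is the 250 bases before the annotated start, 5′ to 3′ on the strand of the gene, and capitals mark CpG dinucleotides. The positions are chr7:28379229-28379478 (minus strand) for Zfp36, chr11:73688528-73688777 (plus) for Zfp735, chr4:146514670-146514919 (plus) for Zfp981, chrX:72987089-72987338 (plus) for Zfp185, chr2:120563860-120564109 (minus) for Zfp106 and chr2:175931101-175931350 (minus) for Zfp966.
Zfp36: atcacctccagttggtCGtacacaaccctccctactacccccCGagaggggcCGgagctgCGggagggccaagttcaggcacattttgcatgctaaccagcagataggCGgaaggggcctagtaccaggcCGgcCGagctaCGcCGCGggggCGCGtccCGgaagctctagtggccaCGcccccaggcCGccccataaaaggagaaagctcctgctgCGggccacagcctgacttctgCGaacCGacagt
Zfp735: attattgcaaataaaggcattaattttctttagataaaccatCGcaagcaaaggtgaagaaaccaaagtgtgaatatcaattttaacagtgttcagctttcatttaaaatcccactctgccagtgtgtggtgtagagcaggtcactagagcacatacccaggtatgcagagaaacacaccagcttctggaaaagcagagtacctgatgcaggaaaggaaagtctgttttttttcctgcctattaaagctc
Zfp981: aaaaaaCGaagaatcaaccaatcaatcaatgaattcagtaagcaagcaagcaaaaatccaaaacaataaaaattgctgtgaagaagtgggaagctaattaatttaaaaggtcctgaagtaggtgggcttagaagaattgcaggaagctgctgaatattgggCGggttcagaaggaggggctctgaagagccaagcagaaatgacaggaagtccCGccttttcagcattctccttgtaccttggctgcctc
Zfp185: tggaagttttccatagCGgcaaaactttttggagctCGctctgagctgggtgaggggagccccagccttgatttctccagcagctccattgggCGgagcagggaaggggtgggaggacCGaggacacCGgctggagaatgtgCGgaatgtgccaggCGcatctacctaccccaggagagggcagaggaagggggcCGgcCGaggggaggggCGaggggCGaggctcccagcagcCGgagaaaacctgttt
Zfp106: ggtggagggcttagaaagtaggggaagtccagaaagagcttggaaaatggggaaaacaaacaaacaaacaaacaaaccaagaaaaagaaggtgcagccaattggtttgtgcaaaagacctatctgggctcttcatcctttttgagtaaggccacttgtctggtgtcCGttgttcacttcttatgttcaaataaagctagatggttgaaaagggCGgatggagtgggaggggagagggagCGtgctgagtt
Zfp966: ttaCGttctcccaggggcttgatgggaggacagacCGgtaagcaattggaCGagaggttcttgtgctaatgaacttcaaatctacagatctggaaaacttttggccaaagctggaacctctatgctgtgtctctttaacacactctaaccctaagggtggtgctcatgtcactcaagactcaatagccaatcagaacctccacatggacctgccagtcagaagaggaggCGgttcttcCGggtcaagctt
There are 18 CpG dinucleotides in the Zfp36 window, 12 in Zfp185, 5 in Zfp966, 3 each in Zfp981 and Zfp106, and 1 in Zfp735. Mean raw counts over the 4 libraries were 1131, 117, 0, 34.5, 442 and 19 in that order.

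Most Zfp promoters had high acetylation counts in the ventricle. Their mean raw count had a median of 321 (quartiles 182 to 439), against 213 (64.5 to 430) over all genes. A mean of at least 100 was reached by 307 of 352 Zfp promoters (87.2%), against 66.3% of all genes. The difference lay in the low range rather than the high one. Only 10 Zfp promoters (2.84%) had means from 10 to 50, against 17.4% of all genes, whereas means of at least 400 were about as frequent (29.8% against 28.6%). A single Zfp promoter exceeded 1000, compared with 92 genes in all. The 99 genes of the related Zbtb, Zscan, Zkscan and lettered Zfp names had a median of 337. By library, the median raw count of the 352 was 349 in Sham Veh and 365 in Sham TSA, against 322 in TAC Veh and 243 in TAC TSA, an order that follows the library totals.

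**Figure D1:**
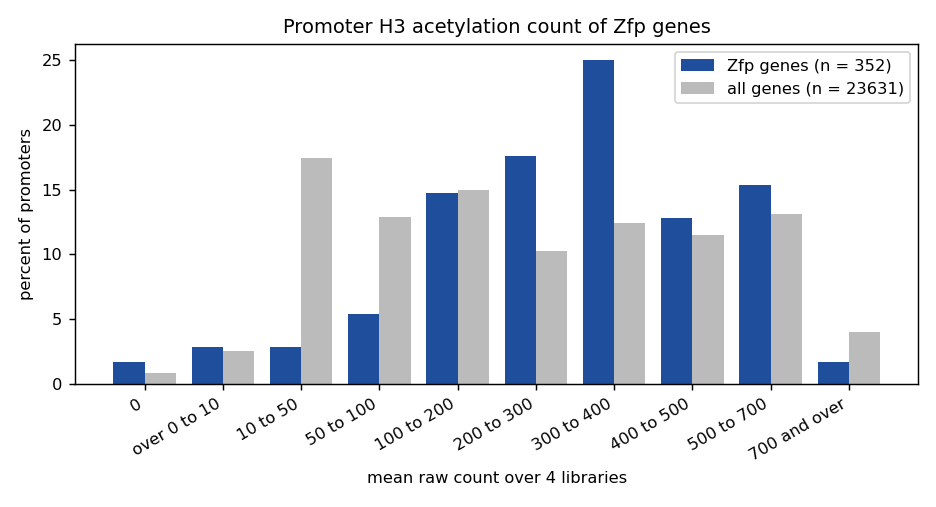
Distribution of the mean raw count over 4 libraries for Zfp promoters and for all genes, as percent of each set per count bin. The Zfp promoters are most frequent between 300 and 400 counts, with 88 of 352, and scarce between 10 and 50, a range that holds 17.4% of all genes.

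The highest Zfp promoter was that of Zfp36, which encodes tristetraprolin, a protein that binds AU-rich elements and speeds the decay of cytokine and immediate-early mRNAs. Its scaled counts were 1158 in Sham Veh and 1175 in Sham TSA, against 1074 in TAC Veh and 1063 in TAC TSA. The values lie close together, with both sham libraries above both TAC libraries. Zfp526 followed at 989, 1002, 953 and 912, and Zfp335, needed for neural progenitors and thymocytes, at 982, 928, 939 and 871. Zfp710 had 863, 949, 908 and 874. Zfp703, a corepressor of the Nolz family, had 774, 762, 749 and 698. In all 5 the highest library was less than 1.5-fold above the lowest.

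At the low end, among promoters with a mean count of at least 10, Zfp735 had scaled counts of 12.9 in Sham Veh and 22.5 in Sham TSA, against 17.6 in TAC Veh and 23.5 in TAC TSA. Zfp345 had 27.6, 18.9, 14.7 and 17.3. Zfp42 (Rex1), a marker of pluripotent cells, had 24.8, 18.0, 23.5 and 30.9. So few counts limit the precision. Zfp616 (20.2, 26.1, 23.5 and 29.7) and Zfp992 (17.5, 22.5, 27.4 and 34.6) complete the 5 lowest. TAC TSA, the library with the highest receptor-promoter share, was the highest in 4 of the 5, all but Zfp345. The part of background in this was not tested.

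A further 16 Zfp promoters had a mean count under 10 and entered no ratio. Zfp131, Zfp965, Zfp966, Zfp967, Zfp973 and Zfp991 were listed at 0 in all 4 libraries, as were 190 genes in all, and a count of 0 allows up to 3 counts per library. Of the other 10, Zfp352 was the highest, with raw counts of 8 in Sham Veh and 8 in Sham TSA, against 11 in TAC Veh and 11 in TAC TSA. Zfp433 had 3, 12, 12 and 5, and Zfp980 had 8, 8, 7 and 5. Zfp781 was lowest, with 1 count in each of Sham TSA and TAC Veh and 0 in the others. Without the count minimum, Zfp433 is apart and higher in TAC Veh over Sham Veh, at 2.09 (0.20 to 4.56, 12 counts against 3), and in Sham TSA over Sham Veh, at 1.97 (0.08 to 4.43). Both rest on the same 3 counts in Sham Veh.

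Many of the near-empty promoters have a sequence that recurs elsewhere. Every 36-base word of each 250-base window was looked up in all other listed promoters that do not overlap it. Of the 12 promoters with a mean under 10 and a single listed start, 11 shared at least 1 word and 8 shared over 50% of their words, with a median of 88.1%. Among 60 promoters with a mean of at least 400, none shared a word. In between, words were shared by 7 of 20 promoters with means of 10 to 100, 12 of 35 with 100 to 200, and 12 of 113 with 200 to 400. Zfp966 and Zfp967, both at 0, have the same 250 bases, and all words of Zfp965 and Zfp973, also at 0, recur among 27 other genes. Recurrence did not always go with a low count. All words of the Zfp970 window recur, yet its raw counts were 98 in Sham Veh and 115 in Sham TSA, against 85 in TAC Veh and 85 in TAC TSA. The windows of Zfp943, Zfp942, Zfp758 and Zfp944 shared 84.2%, 83.3%, 80.9% and 71.6% of their words at mean counts of 310, 311, 242 and 242. Conversely, Zfp352 shared no word at a mean count of 9.5. The sources used here do not give read length or how reads that map to several places were treated, and the part of repeated sequence in the counts of 0 was not tested.

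Promoters with more CpG dinucleotides had higher acetylation counts. The Zfp windows held a median of 10 CpG dinucleotides (quartiles 6 to 16), against 9 (3 to 19) for 14964 genes with a single listed start. Few Zfp promoters were CpG-poor: 39 of 240 (16.2%) had under 5, against 34.9% of all genes. Across the 240 promoters, Spearman's rho between CpG number and mean count was 0.54, and across all genes it was 0.71. These are correlations across genes within the same libraries, and genes are not independent replicates. With under 5 CpG dinucleotides, Zfp promoters had a median mean count of 127 against 39.2 for all such genes. The gap narrowed with CpG number, to 234 against 162 for 5 to 9, 356 against 364 for 10 to 19 and 427 against 435 for 20 to 29. With 30 or more, the 7 Zfp promoters had a median of 361, below the 453 of all such genes. Zfp106, an RNA-binding protein needed for motor neuron and muscle upkeep, shows the CpG-poor but acetylated type. Its scaled counts were 450 in Sham Veh and 444 in Sham TSA, against 449 in TAC Veh and 402 in TAC TSA, with 3 CpG dinucleotides. The reverse also occurred: Zfp618 had the most CpG dinucleotides, 48, and a mean count of 72.8.

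**Figure D2:**
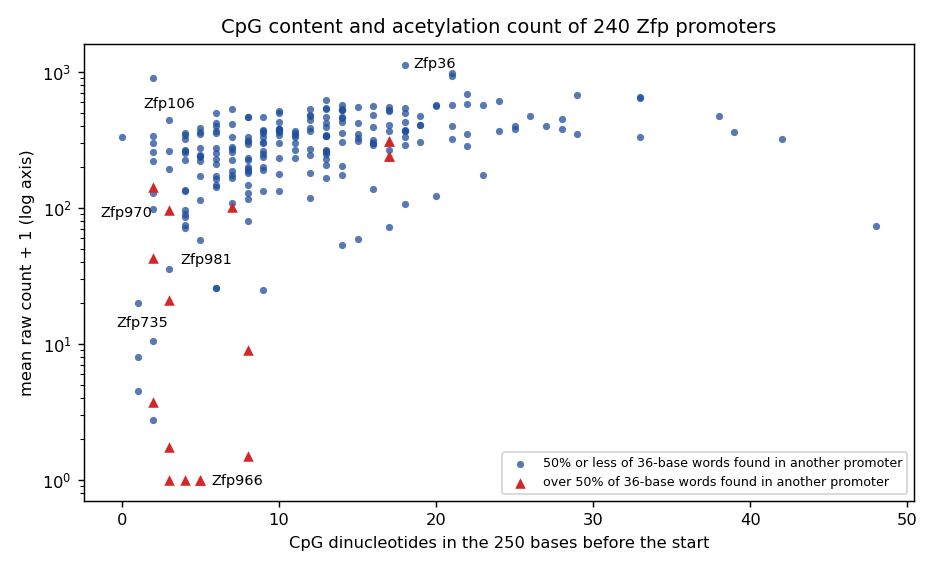
CpG dinucleotides in the 250 bases before the start (x axis) against mean raw count plus 1 (y axis, log scale) for 240 Zfp promoters. Triangles are windows in which over 50% of 36-base words recur in another promoter, and most of the lowest points are triangles, while promoters with 10 or more CpG dinucleotides average over 50 counts.

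Short motifs were searched on both strands of the same windows. None of the strings contains another, but several contain CpG. The core of ETS factor sites, CCGGAA, was in 74 of 240 Zfp windows (30.8%) against 15.2% of all windows, and the CCAAT box, CCAAT, in 47.9% against 36.8%. The palindromic NRF1 site was in 3.33% against 1.04%. The GC box GGGCGG of Sp1 was about as frequent as elsewhere (41.7% against 42.5%), as was the CRE TGACGTCA (2.5% against 2.06%). The TATA box TATAAA was in 5.42% against 12.8%, and the YY1 site in 0.833% against 0.401%. Count level goes with some of this. From 400 counts up, the ETS string was in 28.3% of 60 Zfp windows against 26.6% of all such windows. There CCAAT was in 41.7% against 35.8%, the GC box in 55% against 67.3% and the TATA box in 3.33% against 5.15%. The NRF1 site was in 3.33% against 2.36%. Between 10 and 100 counts, the ETS string was in 10% of 20 Zfp windows against 4.16%. Zfp36 and Zfp966, printed above, both hold the ETS string. Matches are strings of letters, and no binding was measured.

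Levels differed between groups of neighbouring Zfp genes. In the order of protein-coding genes on the RefSeq assembly GRCm38.p6, 177 Zfp genes lie directly beside at least 1 other, and 81 lie in 11 runs of 5 or more. A protein-coding gene of any other name ends a run, so a gene counted as alone may still lie among zinc finger genes named otherwise. The median mean count was 357 for the 172 genes that lie alone, 326 for 50 in runs of 2, 293 for 46 in runs of 3 or 4 and 261 for 81 in runs of 5 or more. The longest run, 15 genes from Zfp84 to Zfp146, had a median of 413, from 192 (Zfp940) to 538 (Zfp790), and includes Zfp568 and Zfp260, described below. The 10 genes from Zfp180 to Zfp94 had a median of 238, and the 7 from Zfp786 to Zfp746 one of 366. A pair of runs stood well below the rest. The 5 genes from Zfp980 to Zfp981 had a median of 7 and a highest mean of 34.5, and the 6 from Zfp982 to Zfp933 had a median of 30.4. Of these 11 genes, 6 had means under 10. Yet Zfp933, at the end of its run, had 309. In 26 of the 240 windows with sequence, the window overlaps that of another gene, and Zfp91 has all 4 counts in common with Gm44505, so such values are not independent.

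**Figure D3:**
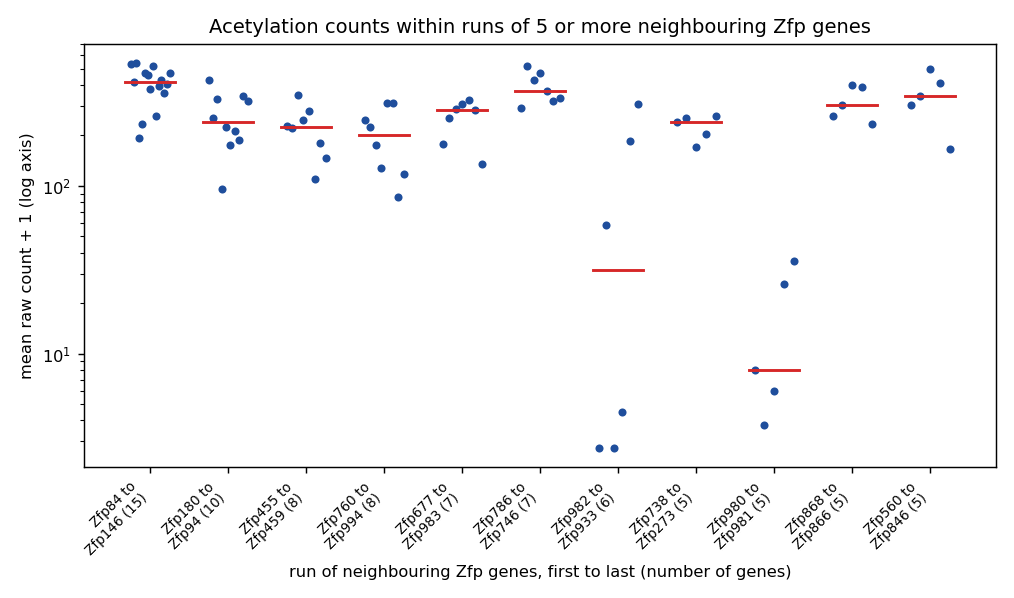
Mean raw count plus 1 (log axis) of each Zfp promoter in the 11 runs of 5 or more consecutive Zfp genes, with the median of each run marked. The runs Zfp980 to Zfp981 and Zfp982 to Zfp933 have medians of 7 and 30.4, and the other 9 lie between 199 and 413.

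Across the 4 libraries the Zfp promoters were steady. Of 336 with a mean count of at least 10, 325 (96.7%) had less than 1.5-fold between the highest and the lowest scaled count, against 80.8% of the 22835 genes that passed the same minimum. The median of this range was 1.16-fold, against 1.22-fold. The 92 related zinc finger names kept were alike, with 95.7% under 1.5-fold and a median range of 1.15-fold. Count level goes with this: between 200 and 400 counts the shares were 100% of 150 Zfp promoters and 97.8% of all genes, between 100 and 200 they were 96.2% of 52 and 92.7%, and between 10 and 50 they were 30% of 10 and 25.6%. The steadiest was Zfp346, at 471 in Sham Veh and 465 in Sham TSA, against 469 in TAC Veh and 469 in TAC TSA, a range of 1.01-fold. The 11 promoters with at least 1.5-fold were Zfp981 (2.44), Zfp936 (2.40), Zfp992, Zfp72, Zfp345, Zfp735, Zfp42, Zfp831, Zfp185, Zfp474 and Zfp612, and 7 of these have a mean count under 50.

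**Figure D4:**
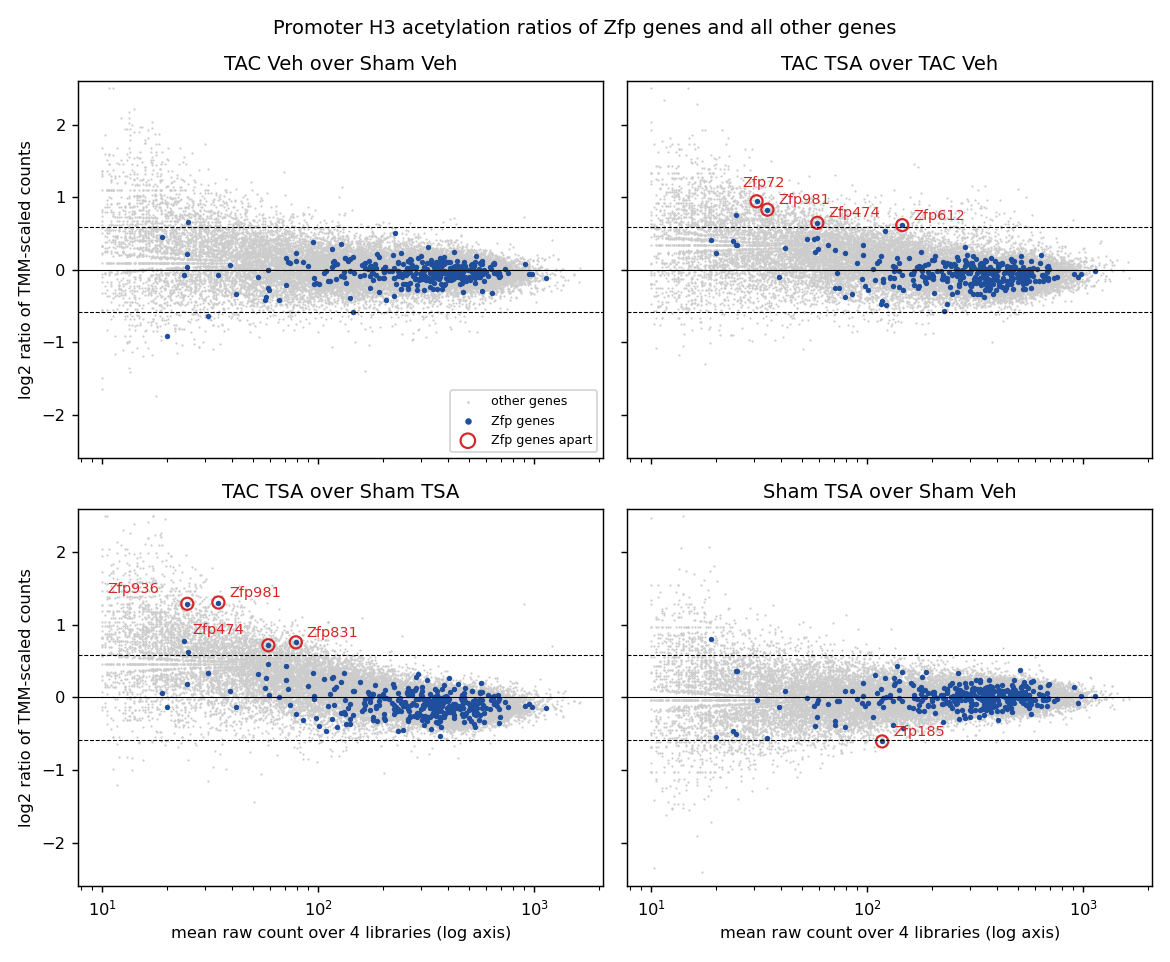
Log2 ratio of TMM-scaled counts (y axis) against mean raw count (x axis, log scale) in each of 4 library comparisons, with Zfp promoters in blue over all other genes in grey, dashed lines at 1.5-fold and circles on Zfp promoters apart by the rule in the text. The Zfp points lie close to 0 at most counts, and the circled ones have mean counts from 24.8 to 145.

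Pressure overload was compared with sham surgery as TAC Veh over Sham Veh. A promoter is called apart when its scaled counts differ at least 1.5-fold and the interval of the ratio excludes no difference. No Zfp promoter was apart in either direction, where the rule takes 1.93% of all genes as higher and 0.582% as lower. The median log2 ratio of the 336 was −0.04, against −0.00 over all genes, and 62.2% of ratios were below 0, against 50.1%. At like counts the medians were −0.04 against −0.02 between 200 and 400 counts, and −0.04 in both sets from 400 up. Between 10 and 50 counts, 10 Zfp promoters had a median of −0.02. All genes there had 0.23, with 7.41% of them apart and higher. With loess scaling, which follows count level, 55.4% of Zfp ratios were below 0, against 50.5%. The whole interval lay below 0 for 21 Zfp promoters, or 6.25% against 7.2% of all genes, and above it for 5, or 1.49% against 5.82%. The share below was thus near that of all genes. The lowest ratio among these 21 was that of Zfp612, a little described zinc finger gene, with scaled counts of 158 in Sham Veh and 153 in Sham TSA, against 106 in TAC Veh and 162 in TAC TSA. TAC Veh was low and the other 3 libraries were alike, and its ratio of −0.58 (−0.94 to −0.22) fell just short of 1.5-fold. In the same comparison the summed scaled count of the 10 cardiomyocyte markers went from 3942 in Sham Veh to 2697 in TAC Veh, with none at 0, and the median of their log2 ratios was −0.57. Other markers differed as well: 10 fibroblast markers summed to 1827 and 2311 (median ratio 0.32, 2 apart and higher), 9 leukocyte markers to 1068 and 1344 (0.31, 1 apart and higher), and 8 endothelial markers to 3989 and 3527 (−0.21, none apart). The part of cell composition in the Zfp values was not tested.

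In pressure-overloaded hearts, TSA was compared with vehicle as TAC TSA over TAC Veh. Of the Zfp promoters, 4 were apart and higher, where the rule takes 4.06% of all genes, and none was lower (0.342%). The 4 are Zfp612, Zfp981, Zfp474 and Zfp72, and on the raw scale none exceeded 131 counts in TAC TSA. Zfp612, whose scaled counts are given above, had 131 raw counts in TAC TSA against 108 in TAC Veh, a ratio of 0.61 (0.24 to 1.00) after scaling, and its TAC TSA level was close to that of both sham libraries. Zfp981, a gene of the low run above, had scaled counts of 33.1 in Sham Veh and 22.5 in Sham TSA, against 31.3 in TAC Veh and 55.6 in TAC TSA, and its ratio was 0.83 (0.14 to 1.53). Here TAC TSA alone was high. With the lower of its 2 transcripts, at raw counts of 11 in Sham Veh and 12 in Sham TSA, against 19 in TAC Veh and 20 in TAC TSA, the ratio was 0.41 (−0.58 to 1.39) and no longer apart, and TAC Veh over Sham Veh turned from −0.08 to 0.88 (−0.26 to 2.10). Zfp474 had 53.3, 50.3, 52.9 and 82.8, with a ratio of 0.65 (0.11 to 1.19), again with TAC TSA alone high. Zfp72 had 32.2, 31.5, 20.6 and 39.6, with a ratio of 0.94 (0.10 to 1.81), TAC Veh being low. With scaling that follows count level (loess), or on the receptor promoters, none of the 4 remained apart. The median of all 336 was −0.05, against 0.00 over all genes, with 64.0% of ratios below 0 against 49.8%. Whole intervals lay above 0 for 8 Zfp promoters, or 2.38% against 8.13% of all genes, and below for 31, or 9.23% against 10.4%. With loess scaling these were 10 (2.98% against 6.53% of all genes) and 15 (4.46% against 6.46%), with 53.0% of ratios below 0 against 50.4%. With receptor-promoter scaling they were 0 (0.907% of all genes) and 289 (86.0% against 57.6%). Cardiomyocyte markers were higher, with a summed scaled count of 4529 in TAC TSA, a median log2 ratio of 0.68 and 8 of 10 apart. Leukocyte markers summed to 1021 in TAC TSA (median ratio −0.42, 2 of 9 apart and lower) and fibroblast markers to 1906 (−0.27, 1 of 10 apart and lower). The receptor-promoter share was highest in TAC TSA. The part of cell composition or background in the Zfp values was not tested.

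The comparison of TAC TSA over Sham TSA gave 4 higher Zfp promoters, where the rule takes 7.2% of all genes, and none lower (0.206%). Zfp981 had 45 raw counts in TAC TSA and 25 in Sham TSA, a log2 ratio of 1.31 (0.57 to 2.07), or 2.48-fold. With loess scaling it was 0.80 and still apart, and on the receptor promoters 0.71 and not apart. With its lower transcript it was 1.19 (0.09 to 2.36) and apart. Zfp936 had scaled counts of 22.97 in Sham Veh and 16.2 in Sham TSA, against 23.5 in TAC Veh and 39.6 in TAC TSA, with a ratio of 1.29 (0.41 to 2.21). Sham TSA was the lowest library and TAC TSA the highest. Zfp831 had 77.2, 58.4, 84.2 and 98.9, with a ratio of 0.76 (0.27 to 1.25), in the same pattern. Zfp474 had a ratio of 0.72 (0.18 to 1.26). None of these last 3 remained apart with loess or receptor-promoter scaling. The bulk of Zfp promoters was slightly lower here: the median was −0.10, against −0.01 over all genes, 72.02% of ratios were below 0, against 52.0%, and whole intervals lay below 0 for 56, or 16.7% against 13.8% of all genes, and above for 9, or 2.68% against 10.3%. With loess scaling the median of the 336 was −0.02. Whole intervals then lay below 0 for 27, or 8.04% against 5.76% of all genes, and above for 17, or 5.06% in both sets. At like counts all genes gave similar medians, −0.09 against −0.11 for Zfp promoters between 200 and 400 counts and −0.13 against −0.12 from 400 counts up. The related zinc finger names, 92 of them kept, had a median of −0.12, with 76.1% of ratios and 27.2% of whole intervals below 0. The lowest ratio of a Zfp promoter was that of Zfp956, at 364 in Sham Veh and 429 in Sham TSA, against 343 in TAC Veh and 297 in TAC TSA, with a ratio of −0.53 (−0.76 to −0.30), short of 1.5-fold. This comparison shares a library with each of the others that use TAC TSA or Sham TSA, so their values are not independent.

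In sham hearts the Zfp promoters differed little between TSA and vehicle. The median of Sham TSA over Sham Veh was −0.00, against 0.01 over all genes, and 167 ratios lay above 0 and 169 below. A single promoter was apart, and lower: Zfp185, where the rule takes 0.582% of all genes. It had scaled counts of 131 in Sham Veh and 86.3 in Sham TSA, against 142 in TAC Veh and 105 in TAC TSA. Both TSA libraries were below both vehicle libraries. Its ratio was −0.61 (−0.99 to −0.22) in sham hearts and −0.43 (−0.84 to −0.04) in TAC hearts. With loess scaling the sham ratio was −0.58 and no longer apart. None was higher (0.582% of all genes). Whole intervals lay above 0 for 16 Zfp promoters, or 4.76% against 5.2% of all genes, and below for 14, or 4.17% against 3.81%.

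How far the TSA ratio differed between TAC and sham hearts was given by the ratio of ratios, with a counting interval and no test. Its median over 336 Zfp promoters was −0.06 (quartiles −0.18 to 0.08), against −0.01 over all genes. The highest was Zfp981 at 1.39 (0.40 to 2.37), on few counts. With its lower transcript the TSA ratio was 0.41 (−0.58 to 1.39) in TAC hearts and 0.09 (−1.21 to 1.42) in sham hearts. The value of 1.39 thus depends on the transcript taken. Zfp936 followed at 1.26 (0.10 to 2.42) and Zfp72 at 0.97 (-0.07 to 2.02), both on few counts, and Zfp612 had 0.66 (0.18 to 1.14). The lowest was Zfp334 at −0.70 (−1.08 to −0.31), chosen after its values were seen. It had scaled counts of 200 in Sham Veh and 219 in Sham TSA, against 284 in TAC Veh and 192 in TAC TSA, so that TAC Veh alone was high.

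Using all 4 libraries, an additive model of surgery and drug was fitted over 22835 genes with edgeR's quasi-likelihood test and Benjamini-Hochberg adjustment. Its single residual degree of freedom is the interaction. In the main fit the spread was taken wholly from the estimate shared across genes, with no gene-specific part. With loess scaling a gene-specific part remained. No Zfp promoter passed an adjusted p of 0.05 for surgery or for drug, where 0.035% and 0.215% of all genes did. At an unadjusted p under 0.05 there were 11 for surgery (1 higher, 10 lower), 3.27% of Zfp promoters against 9.32% of all genes, and 4 for drug (2 higher, 2 lower), 1.19% against 4.27%. The split by direction differed between settings, here with the share of all genes in parentheses. For surgery there were 5 higher (2.43%) and 9 lower (3.05%) with loess scaling. With a mean count of at least 50 there were 4 (3.12%) and 7 (3.5%), and on the receptor promoters 0 (0.644%) and 47 (11%). For drug there were 7 higher (2.92%) and 2 lower (2.06%) with loess scaling, and 0 (0.508%) and 4 (2.39%) on the receptor promoters. Limma-voom and DESeq2 also called 0 after adjustment, with 10 and 0 unadjusted for surgery (9.39% and 0.206% of all genes) and 5 and 0 for drug (4.19% and 0.267%). For surgery, the smallest p-values were those of Zfp956, with a log2 difference of −0.30, and Zfp516, a brown fat regulator, with −0.24, both at an adjusted p of 0.362 by edgeR. Zfp516 had scaled counts of 602 in Sham Veh and 643 in Sham TSA, against 541 in TAC Veh and 508 in TAC TSA, with both TAC libraries below both sham libraries. Zfp933, at 326, 342, 269 and 278, had −0.29 (edgeR adjusted p 0.431) and the same split. For drug, Zfp185 came first at −0.52 (edgeR adjusted p 0.558). Zfp641 had 109, 131, 99.9 and 145, a log2 difference of 0.39, and Zfp459 had 165, 123, 160 and 131, a difference of −0.36, both with an edgeR adjusted p of 1.00. In each of these the TSA libraries lie on 1 side of the vehicle libraries.

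Zfp genes with a described function were next read by role, as scaled counts, first the sham pair (Veh, then TSA) and then the TAC pair. None of the 23 was apart in any comparison. By comparison and direction, the rule takes 0.206% to 7.2% of all genes, and at most 1.25% of those between 200 and 400 counts. Zfp260, a partner of Gata4 in cardiac gene control downstream of adrenergic signals, had 371, 383, 342 and 304. It was lowest in TAC TSA, with a ratio of −0.33 (−0.56 to −0.10) over Sham TSA. Among KRAB proteins that guard imprints, Zfp57 had 186, 163, 197 and 183, and Zfp445 had 271, 277, 276 and 262, with no order shared by the pair. Zfp809, which silences retroviral elements, had 300, 246, 290 and 299, so that Sham TSA alone was low, at −0.28 (−0.52 to −0.05) against Sham Veh. Zfp568, a repressor of a placental Igf2 transcript, had 481, 528, 492 and 562. It was higher in both TSA libraries than in both vehicle libraries, by less than 1.5-fold.

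General activators and promoter-binding factors come next, at levels that genes of other roles, such as Zfp36 and Zfp335, exceeded. Zfp143, which binds many promoters, had 599 in Sham Veh and 661 in Sham TSA, against 603 in TAC Veh and 642 in TAC TSA. Zfp148, a GC-box factor, had 575, 589, 555 and 499, and Zfp281, a related protein known from pluripotent cells, had 395, 423, 427 and 367. Both were lowest in TAC TSA. Zfp410, an activator of the chromatin remodeller gene Chd4, had 639, 631, 673 and 639.

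Among regulators of fat and progenitor cells, Zfp423, a preadipocyte factor, had 395 in Sham Veh and 400 in Sham TSA, against 466 in TAC Veh and 433 in TAC TSA. Both TAC libraries were above both sham libraries, and TAC Veh over Sham Veh was 0.24 (0.05 to 0.43). Its relative Zfp521 had 582, 523, 576 and 549, and Zfp638, an adipocyte differentiation factor, had 386, 409, 380 and 352. Neither showed the order of Zfp423. Zfp217, a corepressor subunit amplified in tumours, had 458, 594, 478 and 472. Sham TSA alone was high, at 0.37 (0.20 to 0.54) over Sham Veh. The Nolz corepressor Zfp503 had 470, 463, 469 and 431.

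The remaining described genes act in other settings. Zfp318, needed for IgD on B cells, had 344 in Sham Veh and 373 in Sham TSA, against 359 in TAC Veh and 357 in TAC TSA. Zfp207, a spindle assembly protein, had 549, 540, 520 and 476. Zfp91, a ubiquitin ligase, had 674, 762, 655 and 596, with a ratio of −0.36 (−0.52 to −0.19) in TAC TSA over Sham TSA. Its counts equal those of Gm44505 and may stem from either gene.

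**Figure D5:**
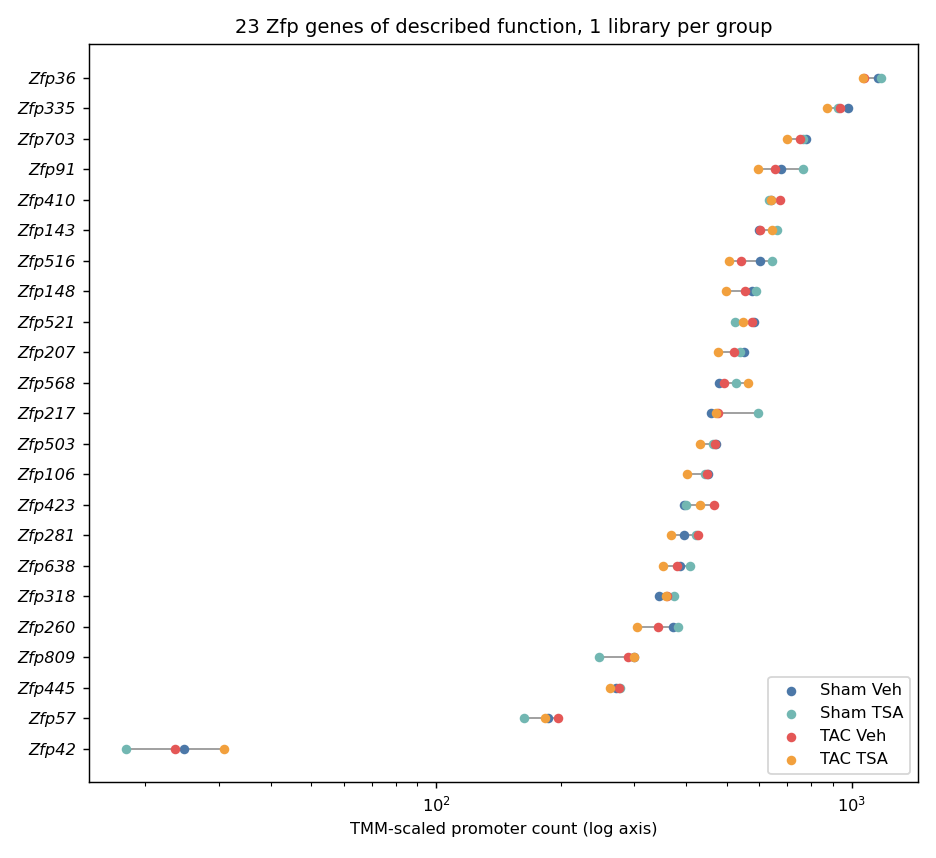
Scaled counts of the 23 Zfp promoters with a described function in each of the 4 libraries (log axis, 1 point per library, no replicates). The points of each gene lie close together relative to the spread between genes, from 18 to 30.9 for Zfp42 to over 1000 for Zfp36.

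The proteins through which KRAB zinc fingers silence chromatin were read from a list of 31 corepressor and silencing genes, all of them measured. Their mean counts ran from 58 to 827, with a median of 429. None was apart in any of the 4 comparisons. The rule takes 0.206% to 7.2% of all genes, by comparison and direction. From 400 counts up it takes at most 0.311%, and between 200 and 400 counts, where some of the 31 lie, at most 1.25%. None passed the additive test by edgeR, where 0.035% of all genes did for surgery and 0.215% for drug. Their median log2 ratios were 0.00 for TAC Veh over Sham Veh, −0.16 for TAC TSA over either TAC Veh or Sham TSA, and 0.04 for Sham TSA over Sham Veh. All genes from 400 counts up had −0.04 for TAC Veh over Sham Veh and 0.01 for Sham TSA over Sham Veh. For TAC TSA they had −0.08 over TAC Veh and −0.13 over Sham TSA. Between 200 and 400 counts the all-gene medians were −0.02, 0.01, −0.07 and −0.09 in the same order. Trim28, the common KRAB partner, had raw counts of 666 in Sham Veh and 743 in Sham TSA, against 612 in TAC Veh and 500 in TAC TSA. Setdb1, the histone methyltransferase it recruits, had 173, 167, 154 and 138. Once scaled, Trim28 had 612, 668, 599.5 and 618 and Setdb1 159, 150, 151 and 171, so that no ratio of either reached 1.5-fold.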

How the data were processed

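H3 acetylation was measured by ChIP-seq in 4 left ventricle libraries, 1 per group. The authors deposited unnormalised read counts for the promoters of RefSeq transcripts. BWA 0.5.9, MACS 1.4.1 and mm9 are named in the submitters' processing notes. The sources used here do not give their roles, the promoter window, how reads were counted, or how duplicate reads and input were treated. The deposited lists of differing regions were not used here.

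Of 31594 RefSeq IDs, 31115 (98.5%) matched a symbol of GRCm38.p6, used for names, gene order and promoter sequence only. The other 479 IDs, with 1.11% of counts, were dropped. The 22835 genes averaging 10 or more counts were kept, and libraries were scaled by TMM (edgeR 4.0.16, R 4.3.3). Pairwise log2 ratios carry exact conditional 95% intervals, which cover counting error only and take PCR reads as independent. They compare libraries, not conditions. Promoters at least 1.5-fold different with an interval excluding 1 are apart. The additive fit used edgeR's quasi-likelihood test with Benjamini-Hochberg adjustment over all genes. Alternatives were DESeq2 1.42.0 (size factors and Wald test), limma-voom (limma 3.58.1), loess and receptor-promoter scaling, other count minimums and the transcript with the lowest count. The tests were checked on simulated data. Ratios and plots were made in Python 3.11.15 (scipy 1.17.1, pandas 2.3.3, numpy 2.4.6, matplotlib 3.10.9).

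The Zfp genes, the partner and marker lists and the tests were chosen with earlier results of these data known. Genes named are the 5 highest and 5 lowest, up to 4 apart per comparison and direction, the 3 smallest additive p-values per effect and 23 with a described function, plus those said to be chosen after their values were seen.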

Additional observations from a re-analysis of the deposited data

How the results depend on the processing

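With 1 library per group, no replicate could be left out and no replicate spread enters any ratio. No paired analysis was possible because each group has only replicate 1. In parentheses below is the share of all genes that the same rule takes at the same setting. With loess scaling, TAC Veh over Sham Veh gave 2 lower Zfp promoters (1.09%) instead of 0. TAC TSA over TAC Veh gave 0 higher (1.33%) instead of 4 and 1 lower (1.09%) instead of 0. TAC TSA over Sham TSA gave 1 higher (0.836%) instead of 4 and 2 lower (1.36%) instead of 0, and Sham TSA over Sham Veh 0 lower (0.547%) instead of 1. With receptor-promoter scaling the lower counts were 9 (3.77%), 52 (14.3%) and 241 (52.1%) in the first 3 comparisons, and the higher counts of TAC TSA over TAC Veh (0.438%) and over Sham TSA (0.447%) were 0. By construction that scaling moves every ratio of a comparison by 1 amount. Without a count minimum, 1 promoter was higher in TAC Veh over Sham Veh (1.94%) and 1 in Sham TSA over Sham Veh (0.597%), Zfp433 in both. With a mean count of at least 50, TAC TSA gave 2 higher over TAC Veh (2.66%) and 2 over Sham TSA (3.67%). None of the 9 ratios called apart changed sign under loess or receptor-promoter scaling, DESeq2 size factors or the lowest-count transcript. For DESeq2 size factors and receptor-promoter scaling this was fixed beforehand, since their shifts are smaller than any ratio called apart in that comparison. Of 160 ratios of named promoters, called or not, 24 had the other sign with loess scaling, 38 with receptor-promoter scaling, 3 with the lowest-count transcript and 0 with DESeq2 size factors. The additive fit called no Zfp promoter under any setting run. The minimum of 50 for the additive fits was chosen after seeing the data. Low counts limit what can be seen: over the kept Zfp promoters, the median half-width of the log2 intervals ranged from 0.21 (Sham TSA over Sham Veh) to 0.24 (both comparisons of TAC TSA).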
